A study of Caenorhabditis elegans with 36 samples.

Results

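The 10 genes described here make, convert or break down pyrimidine nucleotides in the nematode Caenorhabditis elegans, or supply the deoxynucleotides from which DNA is built. They are dhod-1, pyr-1, umps-1, tyms-1, rnr-1, rnr-2, dut-1, dpyd-1, cdd-1 and cdd-2, chosen by name. The names matched 10 of the 27782 gene identifiers in the count table, and all 10 passed the filter on low counts in each of the 10 comparisons. Their counts per library ran from 49 to 598 for cdd-1, the lowest, and from 1024 to 36583 for rnr-2, the highest.

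RNA was sequenced from whole worms of the wild-type strain N2, about 3000 per sample, that were exposed from the L1 larval stage at 20 °C and collected as adults of day 1. The 36 libraries formed 9 groups, each with 4 biological replicates. In batch 1, worms received the solvent DMSO alone, 31.5 µM terbinafine, 250 µM miglustat, 500 µM BAY2402234, 500 µM brequinar, or DMSO together with dhod-1 RNAi. In batch 2 they received DMSO, 50 µM doxycycline or 250 µM teriflunomide. For RNAi the worms' bacterial food made double-stranded RNA of dhod-1, and the food of all other groups was Escherichia coli HT115 carrying an empty vector. All plates, those of the controls included, held IPTG, carbenicillin and 10 µM 5-fluorouracil, a pyrimidine analogue that blocks DNA synthesis and is used to keep worm cultures free of progeny. Every difference below is therefore between groups that were all on 5-fluorouracil, and no worms without it were compared. BAY2402234, brequinar and teriflunomide inhibit dihydroorotate dehydrogenase in mammals, the antibiotic doxycycline blocks translation in mitochondria as well as in bacteria, terbinafine inhibits squalene epoxidase and miglustat inhibits glucosylceramide synthase.

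Cells assemble the pyrimidine ring from small precursors in a chain of steps that ends in UMP. The trifunctional enzyme encoded by pyr-1 carries out the opening steps, dihydroorotate dehydrogenase (dhod-1) oxidises dihydroorotate at the inner mitochondrial membrane and hands the electrons to ubiquinone, and UMP synthase (umps-1) completes UMP. Ribonucleotide reductase, with the large subunit rnr-1 and the small subunit rnr-2, turns ribonucleotides into deoxynucleotides. Thymidylate synthase (tyms-1) methylates dUMP to dTMP and is the enzyme that a metabolite of 5-fluorouracil inhibits, while the dUTPase dut-1 hydrolyses dUTP to dUMP, which keeps uracil out of DNA. The cytidine deaminases cdd-1 and cdd-2 return cytidine to uridine in salvage, and dihydropyrimidine dehydrogenase (dpyd-1) opens the breakdown of uracil and thymine; in humans the same enzyme clears 5-fluorouracil. In adult worms most DNA synthesis takes place in the germ line and in embryos.

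Total counts per library lay between 19253276 and 20455600, and levels are given as CPM, counts relative to library size, scaled by TMM within a batch. Changes are given on the log2 scale with a standard error (SE), and a gene is said to have risen or fallen only where edgeR's quasi-likelihood test gave a Benjamini-Hochberg adjusted p below 0.05 over all genes of the fit. The doxycycline libraries stood apart from all others on the first principal component, which held 63.7% of the variance. Replicates 3 and 4 of dhod-1 RNAi lay beyond replicates 1 and 2 on the second component (56.7 and 69.3 against 34.2 and 32.9). On that component the batch 2 DMSO libraries lay at -29.6 for replicate 1 and between -8 and 7.4 for the rest, and replicate 1 of BAY2402234 lay at 6.3 on the first, with the other 3 between -27.8 and -17.1. Where leaving out one of these libraries, or the pair of dhod-1 RNAi, changed a call among the 10 genes, or the number called in a list below by over 1.5 times, the value without it is given. Markers of the germ line, oocytes, sperm, embryos, intestine, muscle, neurons and hypodermis were all detected in both DMSO groups.

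Terbinafine and miglustat left all 10 genes below the threshold. With edgeR, 0 of the 10 genes passed in either comparison, where 0.898% of all 15142 genes passed with terbinafine and 0.581% with miglustat. The log2 fold changes of the 10 genes lay between -0.14 and 0.43 with terbinafine and between -0.37 and 0.32 with miglustat, and the smallest adjusted p-values were 0.319 and 0.487. Without adjustment 1 of the 10 had a p below 0.05 in each, pyr-1 with terbinafine (0.13) and dpyd-1 with miglustat (0.32), and DESeq2 also called 0 of the 10 in each. The 95% intervals of the log2 fold change of tyms-1, for example, were -0.29 to 0.06 and -0.16 to 0.19.

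The other 5 treatments each moved some of the 10 genes, but different ones. BAY2402234 raised 2 (pyr-1 and tyms-1) and lowered 2 (dhod-1 and cdd-2), beside 23.2% of all genes higher and 23.6% lower. Brequinar raised 2 (tyms-1 and rnr-2) and lowered 1 (dpyd-1), beside 5.03% and 10.6% of all genes. DESeq2 called 4 of the 10 higher and 1 lower, and edgeR on these groups alone 5 higher and 1 lower. Both shares are those of the main fit, and edgeR on these groups alone called more of all genes as well. dhod-1 RNAi raised 3 (tyms-1, rnr-1 and rnr-2) and lowered 2 (dhod-1 and cdd-2), beside 31.3% and 30.1%. Doxycycline raised 3 (pyr-1, dpyd-1 and cdd-1) and lowered the other 7, beside 44.8% and 40.2% of all 15695 genes of batch 2. Teriflunomide raised 1 (cdd-1) and lowered 1 (cdd-2), beside 19% and 19.7%. These shares of all genes are the background for the counts: 4 of 10 with BAY2402234, 5 of 10 with dhod-1 RNAi and 10 of 10 with doxycycline were reached where large parts of all genes also passed. The treatments of a batch share its 4 DMSO libraries, so their results are not independent of each other.

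The median size of the changes was below that of all genes in 5 of the 7 treatments, close to it with brequinar and above it with doxycycline. The median absolute log2 fold change was 0.25 for the 10 genes and 0.38 for all genes with BAY2402234, 0.25 and 0.23 with brequinar, 0.29 and 0.49 with dhod-1 RNAi, 0.17 and 0.41 with teriflunomide, 0.08 and 0.14 with terbinafine, and 0.03 and 0.13 with miglustat. With doxycycline it was 2.17 for the 10 genes and 1.397 for all genes. The signed medians were -0.78 and 0.23 with doxycycline and 0.19 and 0.01 with brequinar. Together the 10 genes held 0.210% ± 0.0108 (SD, n = 4) of all counts in the batch 1 DMSO libraries and 0.324% ± 0.0336 in dhod-1 RNAi, and 0.187% ± 0.0172 in the batch 2 DMSO libraries against 0.0843% ± 0.00507 in doxycycline. The plot of log2 fold changes shows the pattern over the 7 treatments.

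**Figure D1:**
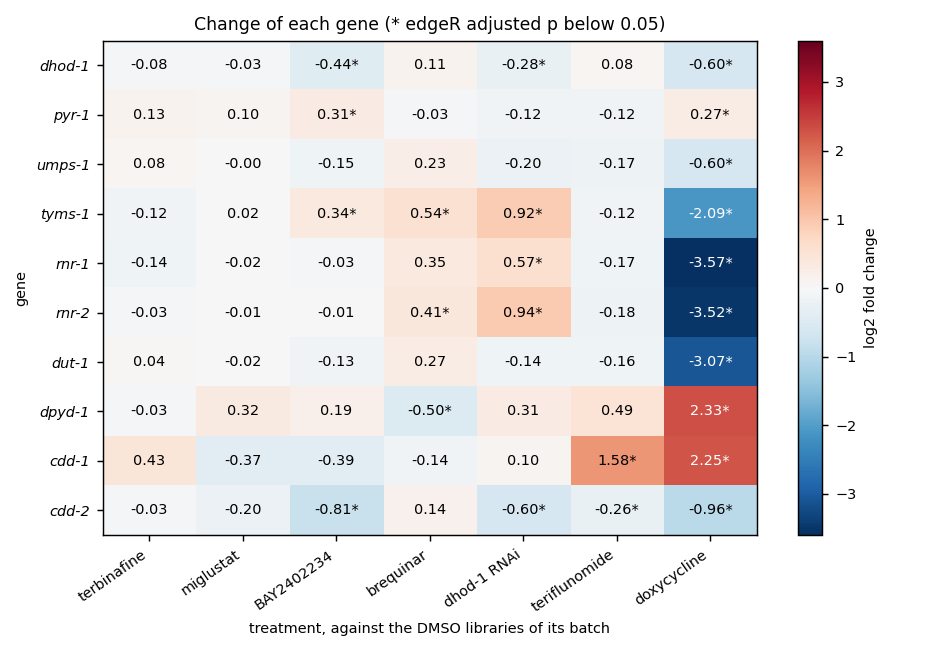
Log2 fold change of each of the 10 genes (lines) in each of the 7 treatments against the DMSO libraries of the same batch (columns), with a star where the edgeR adjusted p was below 0.05. The terbinafine and miglustat columns hold no star, and the doxycycline column holds one for every gene, from -3.57 for rnr-1 to 2.33 for dpyd-1.

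The gene targeted by RNAi, dhod-1 (WBGene00020932, chromosome I, 6736680 to 6741176, plus strand, build WBcel235), was examined first among the genes of UMP synthesis. It stood at 58.1, 78.5, 68.2 and 70.8 CPM in replicates 1 to 4 of dhod-1 RNAi and at 82.7, 79.8, 90.3 and 81.4 CPM in the batch 1 DMSO libraries. All 4 RNAi libraries were below all 4 DMSO libraries, and replicate 2 came close to the lowest control. The fall was small (log2 fold change -0.28, SE 0.08, edgeR adjusted p = 0.00482), and it was no longer called when only these 2 groups were fitted (-0.25, adjusted p = 0.0597). The counts do not separate reads of ingested double-stranded RNA from reads of the worms' own dhod-1 transcript. In RNA from whole worms, fewer cells of a type and less RNA per cell cannot be told apart, here or in any result below.

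Without RNAi, dhod-1 also fell in other groups. With BAY2402234 it stood at 56.4, 63.3, 68.2 and 58.5 CPM, again below every DMSO library (log2 fold change -0.44, SE 0.08, edgeR adjusted p = 0.000249). With doxycycline it stood at 56.7, 56.8, 53.1 and 52.6 CPM and in the batch 2 DMSO libraries at 87.9, 78.4, 93.8 and 73.3 CPM, with no overlap (log2 fold change -0.60, SE 0.08, edgeR adjusted p = 1.2e-05). The libraries of the other inhibitors of the enzyme overlapped with their controls, at 90.4 ± 3.17 CPM with brequinar (SD, n = 4; log2 fold change 0.11, SE 0.08, edgeR adjusted p = 0.341) and 88.0 ± 4.08 CPM with teriflunomide (log2 fold change 0.08, SE 0.08, edgeR adjusted p = 0.413). The 95% intervals of these 2 changes were -0.04 to 0.27 and -0.07 to 0.23. Terbinafine and miglustat libraries held 79.1 ± 5.34 and 81.7 ± 5.18 CPM.

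pyr-1 (WBGene00004259, chromosome II, 8651109 to 8658726, plus strand), which opens the pathway, rose with BAY2402234 where dhod-1 fell. Its levels were 161, 169, 163 and 149.9 CPM with BAY2402234 and 128, 126, 132 and 134 CPM in the batch 1 DMSO libraries. Every BAY2402234 library exceeded every control (log2 fold change 0.31, SE 0.06, edgeR adjusted p = 0.000293). It stood at 165, 128, 144 and 126 CPM with doxycycline and 124, 113, 109.9 and 121 CPM in the batch 2 DMSO libraries, and these groups did not overlap either (log2 fold change 0.27, SE 0.08, edgeR adjusted p = 0.0094). This second rise depended on the scaling: with DESeq2 size factors the log2 fold change was 0.15, adjusted p = 0.149, and that scaling moved the median of all genes in the comparison by -0.12. dhod-1 RNAi libraries, at 125, 117, 115 and 120.4 CPM, were all below the controls without passing the threshold (log2 fold change -0.12, SE 0.06, edgeR adjusted p = 0.0629). The fall was called by edgeR without DMSO replicate 1 (-0.15, adjusted p = 0.0462), DMSO replicate 2 (-0.16, adjusted p = 0.0388) or RNAi replicate 1 (-0.15, adjusted p = 0.035). Brequinar gave 127 ± 4.34 CPM and teriflunomide 107 ± 3.06 CPM, neither past the threshold (adjusted p = 0.73 and 0.235 by edgeR).

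umps-1 (WBGene00011559, chromosome III, 10355837 to 10357648, minus strand), the last enzyme of the route to UMP, passed the threshold in 1 of the 7 treatments. With doxycycline its 4 libraries held 104, 60.9, 81.7 and 58.2 CPM, a wide spread but all below the 109, 111, 125 and 116 CPM of the batch 2 DMSO libraries (log2 fold change -0.60, SE 0.16, edgeR adjusted p = 0.00364). With teriflunomide it held 109, 96.4, 98.4 and 107 CPM, all below the same controls, but the change did not pass (log2 fold change -0.17, SE 0.16, edgeR adjusted p = 0.392). In batch 1 the DMSO libraries held 109.8, 114, 126 and 121 CPM and the brequinar libraries 139, 142.4, 139.9 and 131 CPM, which were all higher without passing (log2 fold change 0.23, SE 0.10, edgeR adjusted p = 0.111). Replicates 3 and 4 of dhod-1 RNAi lay below replicates 1 and 2 (116, 116, 87.8 and 90.3 CPM), and the comparison did not pass (log2 fold change -0.20, SE 0.10, edgeR adjusted p = 0.0815). BAY2402234 gave 106 ± 12.5 CPM (log2 fold change -0.15, SE 0.10, edgeR adjusted p = 0.213). The 3 genes of UMP synthesis did not move as 1 block: no treatment raised or lowered all 3 past the threshold, and with doxycycline dhod-1 and umps-1 fell where pyr-1 rose. That rise of pyr-1 (0.27) was close to the median of all genes (0.23) and was not called with DESeq2 size factors.

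**Figure D2:**
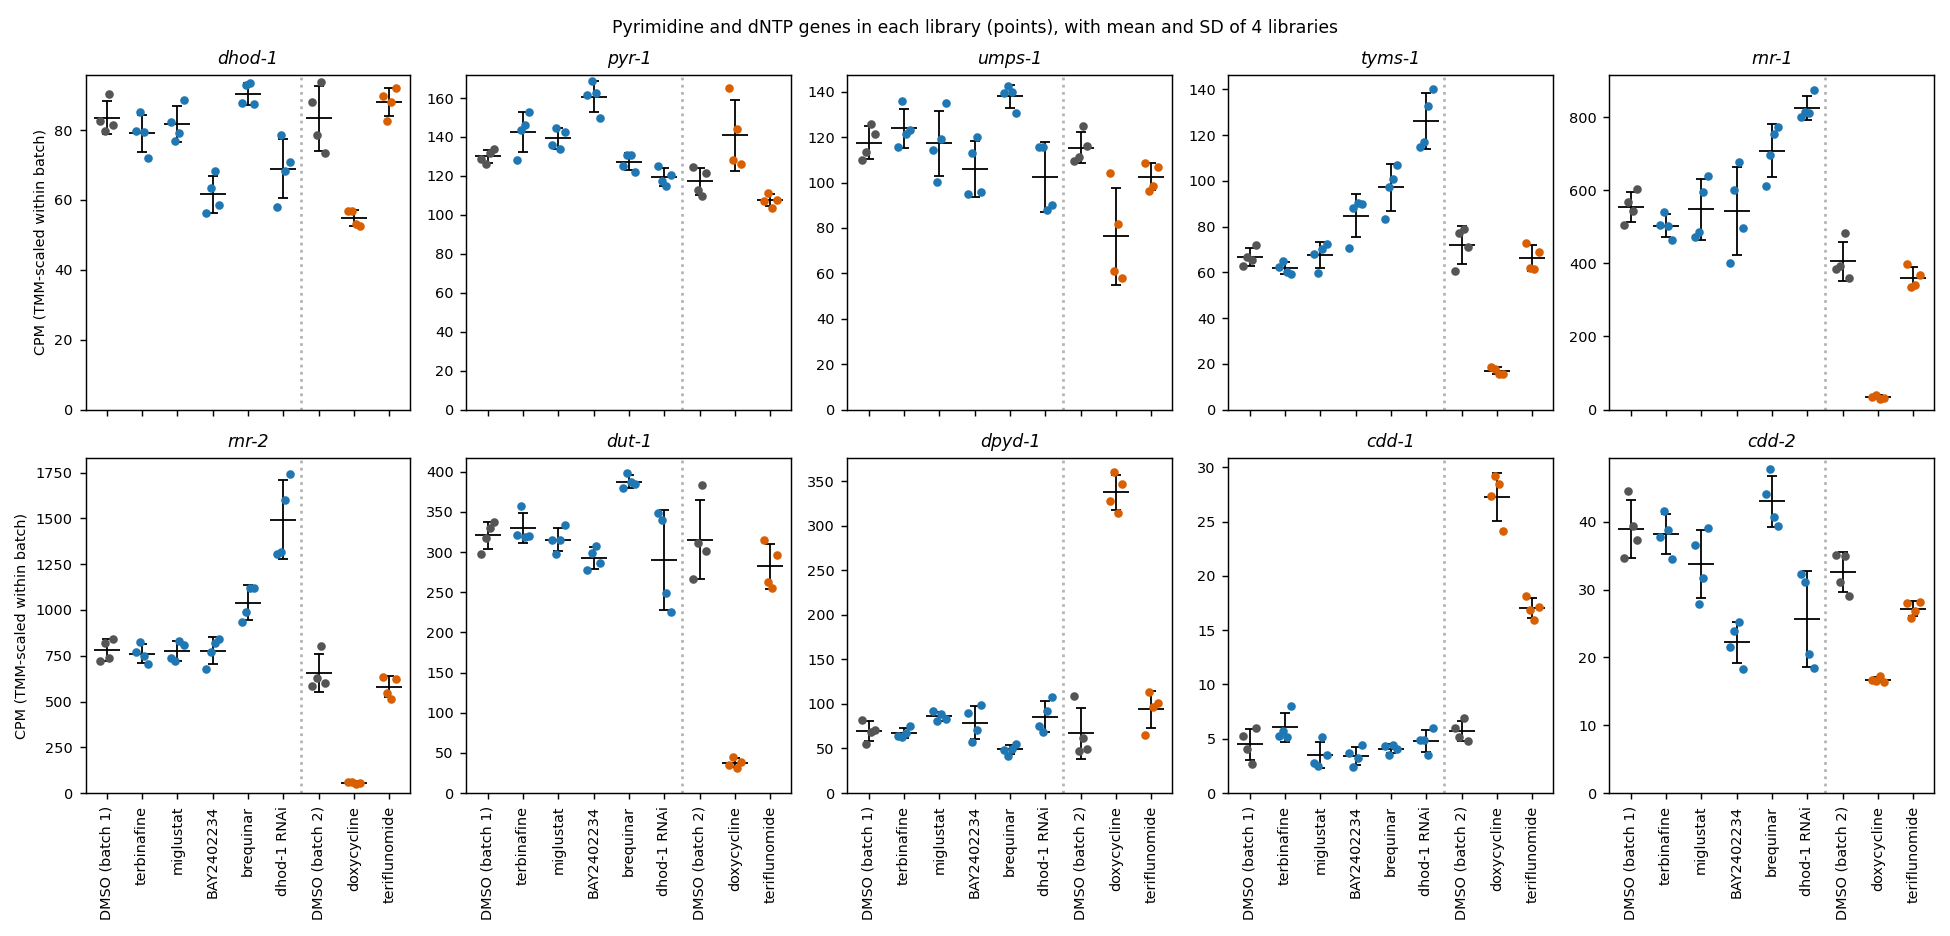
CPM of each of the 10 genes in each of the 36 libraries (one panel per gene, points for libraries by group, with the mean and SD of each group's libraries). The doxycycline libraries hold the lowest values of rnr-1, rnr-2, dut-1 and tyms-1 and the highest of dpyd-1 and cdd-1, and the dhod-1 RNAi libraries the highest of tyms-1, rnr-1 and rnr-2.

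tyms-1 (WBGene00022455, chromosome I, 5138250 to 5139382, plus strand), the thymidylate synthase gene, rose in 3 of the 7 treatments. The batch 1 DMSO libraries held 63.0, 66.8, 65.4 and 72.1 CPM. The dhod-1 RNAi libraries held 115, 117, 133 and 140.3 CPM, the highest of all groups (log2 fold change 0.92, SE 0.09, edgeR adjusted p = 7.24e-08). The brequinar libraries held 83.1, 97.5, 101 and 107 CPM, between the RNAi libraries and the controls with no overlap with either (log2 fold change 0.54, SE 0.09, edgeR adjusted p = 0.000289). The BAY2402234 libraries held 70.7, 88.1, 90.5 and 89.8 CPM, of which replicate 1 lay among the controls and the other 3 above them (log2 fold change 0.34, SE 0.09, edgeR adjusted p = 0.00383). Without replicate 1 the log2 fold change with BAY2402234 was 0.47, adjusted p = 0.000697. Without replicates 3 and 4 of dhod-1 RNAi, the rise in that group was 0.80, adjusted p = 5.5e-06.

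In batch 2, tyms-1 fell with doxycycline to 18.6, 17.9, 15.6 and 15.5 CPM from the 60.6, 77.2, 78.8 and 70.9 CPM of the DMSO libraries (log2 fold change -2.09, SE 0.10, edgeR adjusted p = 1.43e-09). Each doxycycline library was far below each control. With teriflunomide, the third inhibitor of dihydroorotate dehydrogenase, tyms-1 stood at 72.7, 62.0, 61.3 and 69.1 CPM, overlapping with the controls (log2 fold change -0.12, SE 0.10, edgeR adjusted p = 0.344; 95% interval -0.31 to 0.07). Teriflunomide was given at another dose and in another batch than brequinar and BAY2402234, so these values stand side by side and were not compared. An annotated non-coding RNA on the other strand covers 41 exonic bases of tyms-1, and the strand of counting was not given in the sources used here.

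dut-1 (WBGene00010609, chromosome I, 9585417 to 9587203, plus strand), the dUTPase gene, fell with doxycycline and passed in no other treatment. It went from 266, 311, 384 and 301 CPM in the batch 2 DMSO libraries to 35.2, 44.8, 31.6 and 38.8 CPM (log2 fold change -3.07, SE 0.14, edgeR adjusted p = 6.9e-10). The groups were far apart. In batch 1 the DMSO libraries held 298, 317, 329.6 and 338 CPM, and the brequinar libraries, at 379.8, 399, 388 and 384 CPM, were all higher (log2 fold change 0.27, SE 0.10, edgeR adjusted p = 0.059). That difference passed with DESeq2 (0.30, adjusted p = 0.0376), but not with edgeR in the fit of the whole batch. In dhod-1 RNAi the libraries split, at 348, 339.7, 249 and 225 CPM, with replicates 1 and 2 above the controls and replicates 3 and 4 below them (log2 fold change -0.14, SE 0.10, edgeR adjusted p = 0.213). BAY2402234 gave 293 ± 13.3 CPM (log2 fold change -0.13, SE 0.10, edgeR adjusted p = 0.272) and teriflunomide 282 ± 27.8 CPM (log2 fold change -0.16, SE 0.13, edgeR adjusted p = 0.323). Reads in the 56 exonic bases that dut-1 shares with K07A1.3 on the other strand cannot be assigned without knowing the strand of counting.

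tyms-1 uses the dUMP that dut-1 supplies, and the ratio of their levels is given as a description. Per length of exon, tyms-1 stood at 0.313 ± 0.0103 of dut-1 in the batch 1 DMSO libraries (SD, n = 4), 0.434 ± 0.0372 with BAY2402234, 0.376 ± 0.0379 with brequinar and 0.686 ± 0.216 with dhod-1 RNAi. In batch 2 the ratio was 0.344 ± 0.0271 in the DMSO libraries, 0.683 ± 0.0987 with doxycycline and 0.352 ± 0.00565 with teriflunomide. The spread was widest in dhod-1 RNAi, where dut-1 was low in replicates 3 and 4 and tyms-1 was not.

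The ribonucleotide reductase genes rnr-1 (WBGene00004391, chromosome III, 9225339 to 9228798, minus strand), the large subunit, and rnr-2 (WBGene00004392, chromosome III, 4093308 to 4094921, minus strand), the small one, rose together with dhod-1 RNAi and fell together with doxycycline. rnr-2 stood at 719, 822, 737 and 841 CPM in the batch 1 DMSO libraries and at 1306, 1318, 1599 and 1745 CPM in dhod-1 RNAi. All 4 RNAi libraries lay above all controls, replicates 3 and 4 highest (log2 fold change 0.94, SE 0.10, edgeR adjusted p = 1.46e-07). rnr-1 stood at 505, 569, 543 and 603 CPM and 800.0, 815, 812 and 875 CPM in the same groups, again with no overlap (log2 fold change 0.57, SE 0.12, edgeR adjusted p = 0.000442). Without replicates 3 and 4 of dhod-1 RNAi both rises were still called, at 0.75, adjusted p = 7.94e-06 for rnr-2 and 0.54, adjusted p = 0.00986 for rnr-1.

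Brequinar raised rnr-2 to 933, 987, 1120.2 and 1118 CPM, above every control (log2 fold change 0.42, SE 0.10, edgeR adjusted p = 0.00638). rnr-1 with brequinar, at 611, 697, 753 and 773 CPM, was also above every control but just missed the threshold (log2 fold change 0.35, SE 0.12, edgeR adjusted p = 0.053), which it passed with DESeq2 (0.37, adjusted p = 0.0275). With BAY2402234, the other inhibitor given at 500 µM, the libraries overlapped with the controls, at 402, 601, 677 and 496 CPM for rnr-1 and 676, 772, 818 and 841 CPM for rnr-2. The 95% intervals of the log2 fold changes with BAY2402234 were -0.27 to 0.21 for rnr-1 and -0.20 to 0.19 for rnr-2, and the adjusted p-values by edgeR were 0.855 and 0.968.

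With doxycycline rnr-1 held 34.4, 40.8, 28.9 and 32.2 CPM, where its batch 2 controls held 384, 394, 483 and 361 CPM (log2 fold change -3.57, SE 0.13, edgeR adjusted p = 1.41e-10), the largest fall of the 10 genes. rnr-2 held 61.4, 62.7, 48.7 and 56.7 CPM against 587, 630.4, 806 and 601 CPM (log2 fold change -3.52, SE 0.13, edgeR adjusted p = 1.67e-10). Neither gene's doxycycline libraries came near the controls. With teriflunomide the levels were 361 ± 28.2 CPM for rnr-1 and 580.0 ± 57.1 CPM for rnr-2, overlapping with the controls (adjusted p = 0.245 and 0.231 by edgeR). Per length of exon, rnr-1 stood at 0.375 ± 0.0102 of rnr-2 in the batch 1 DMSO libraries and 0.295 ± 0.0338 with dhod-1 RNAi, and at 0.326 ± 0.0132 in the batch 2 DMSO libraries and 0.312 ± 0.0215 with doxycycline. Of overlapping genes, C03C10.2 on the other strand shares 10 exonic bases with rnr-2, and the snoRNA T23G5.7 lies in an intron of rnr-1.

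dpyd-1 (WBGene00016103, chromosome X, 5467870 to 5472683, plus strand), which opens pyrimidine breakdown, had the largest rise of the 10 genes, with doxycycline. It stood at 328, 359.7, 315 and 347 CPM there and at 109, 47.6, 62.1 and 49.3 CPM in the batch 2 DMSO libraries. Replicate 1 of these controls was high, and every doxycycline library was still above it (log2 fold change 2.33, SE 0.26, edgeR adjusted p = 4.52e-06, or 5.04-fold). Without that DMSO library the log2 fold change was 2.66, adjusted p = 1.99e-08. With teriflunomide the levels were 65.2, 114, 96.3 and 101 CPM, which overlapped with the controls through that same library (log2 fold change 0.49, SE 0.25, edgeR adjusted p = 0.131); without it the rise was called (0.83, adjusted p = 0.000971).

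In batch 1, dpyd-1 fell with brequinar, to 48.5, 41.9, 49.9 and 55.2 CPM from 82.3, 55.2, 68.2 and 71.0 CPM in the DMSO libraries (log2 fold change -0.50, SE 0.15, edgeR adjusted p = 0.0259). The highest brequinar library lay just below the lowest control, and leaving out any of 4 single libraries ended the call. These were DMSO replicate 1 (-0.42, adjusted p = 0.105), DMSO replicate 4 (-0.49, adjusted p = 0.0509), brequinar replicate 2 (-0.43, adjusted p = 0.0798) and brequinar replicate 3 (-0.51, adjusted p = 0.0562), all by edgeR. BAY2402234 held 79.0 ± 18.6 CPM (log2 fold change 0.19, SE 0.15, edgeR adjusted p = 0.292), dhod-1 RNAi 85.6 ± 17.6 CPM (log2 fold change 0.31, SE 0.15, edgeR adjusted p = 0.0744) and miglustat 86.2 ± 4.92 CPM (log2 fold change 0.32, SE 0.15, edgeR adjusted p = 0.487), none past the threshold.

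The cytidine deaminase genes cdd-1 and cdd-2 moved in opposite directions in both treatments of batch 2. cdd-1 (WBGene00000391, chromosome X, 8208748 to 8211149, minus strand) held 5.97, 5.16, 6.94 and 4.78 CPM in the batch 2 DMSO libraries, 27.4, 29.2, 28.4 and 24.2 CPM with doxycycline and 18.2, 16.9, 16.0 and 17.2 CPM with teriflunomide. It rose with doxycycline (log2 fold change 2.26, SE 0.12, edgeR adjusted p = 4.7e-09) and with teriflunomide (log2 fold change 1.58, SE 0.12, edgeR adjusted p = 3.52e-06), with all 3 groups apart from each other. cdd-2 (WBGene00000392, chromosome IV, 7547118 to 7547893, minus strand) held 35.1, 31.1, 34.98 and 29.1 CPM in the controls, 16.7, 16.6, 17.2 and 16.3 CPM with doxycycline and 28.0, 25.8, 26.9 and 28.2 CPM with teriflunomide. It fell with doxycycline (log2 fold change -0.96, SE 0.08, edgeR adjusted p = 1.49e-07) and slightly with teriflunomide (log2 fold change -0.26, SE 0.08, edgeR adjusted p = 0.0172). The fall with teriflunomide was not called without replicate 2, 3 or 4 of that group (adjusted p = 0.0604, 0.0824 and 0.0591 by edgeR) or with no filter on low counts (adjusted p = 0.0529). Per length of exon, cdd-1 stood at 0.123 ± 0.0113 of cdd-2 in the controls, 0.441 ± 0.0212 with teriflunomide and 1.15 ± 0.0825 with doxycycline.

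In batch 1 it was cdd-2 that moved. It fell with BAY2402234, to 21.5, 23.8, 25.2 and 18.3 CPM from 34.6, 44.6, 39.3 and 37.3 CPM in the DMSO libraries, with no overlap (log2 fold change -0.81, SE 0.15, edgeR adjusted p = 0.000283). With dhod-1 RNAi it held 32.4, 31.1, 20.6 and 18.5 CPM (log2 fold change -0.60, SE 0.15, edgeR adjusted p = 0.00144), with replicates 3 and 4 lowest, and without those 2 libraries the fall was not called (-0.29, adjusted p = 0.0929). Brequinar libraries, at 44.2, 47.8, 40.7 and 39.5 CPM, overlapped with the controls (log2 fold change 0.14, SE 0.15, edgeR adjusted p = 0.524). cdd-1 had the lowest counts of the 10 genes, with group means in batch 1 from 3.43 to 6.05 CPM, and passed in no treatment of that batch. Its 95% intervals there were wide, -0.88 to 0.10 with BAY2402234, -0.62 to 0.35 with brequinar and -0.38 to 0.58 with dhod-1 RNAi. cdd-2 lies within pam-1 on the same strand, over all of its 776 bases, with no exonic overlap.

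BAY2402234 and brequinar, which inhibit the same mammalian enzyme, were given at the same dose in the same batch and could be compared directly. Of the 10 genes, 2 were higher with BAY2402234 (pyr-1 and dpyd-1) and 6 lower (dhod-1, umps-1, rnr-1, rnr-2, dut-1 and cdd-2), beside 33.2% of all genes higher and 30.2% lower. The difference was largest for cdd-2 (-0.95, SE 0.15, edgeR adjusted p = 1.46e-05 on the log2 scale), followed by dpyd-1 (0.69, SE 0.15, edgeR adjusted p = 0.000445) and dhod-1 (-0.55, SE 0.08, edgeR adjusted p = 5.53e-06). It was 0.34, SE 0.06, edgeR adjusted p = 3.22e-05 for pyr-1, -0.42, SE 0.10, edgeR adjusted p = 0.000943 for rnr-2, -0.41, SE 0.10, edgeR adjusted p = 0.00124 for dut-1 and -0.38, SE 0.10, edgeR adjusted p = 0.00218 for umps-1. The libraries of the compounds did not overlap for any of these 7 genes. The share of all genes without overlap was not computed, so this has no background to be read against. For rnr-1 they did overlap (-0.38, SE 0.12, edgeR adjusted p = 0.0102), and the call was lost without replicate 1 of BAY2402234 (-0.18, adjusted p = 0.173), with a stricter filter on low counts (-0.25, adjusted p = 0.0643) or with only these groups fitted (-0.33, adjusted p = 0.0709). tyms-1 and cdd-1 did not pass, with 95% intervals of the difference of -0.37 to -0.02 and -0.74 to 0.24; for tyms-1, DESeq2 did call it (-0.21, adjusted p = 0.043).

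BAY2402234 was also set against dhod-1 RNAi, which targets the gene of the enzyme. With BAY2402234, 1 of the 10 genes was higher (pyr-1, 0.43, SE 0.06, edgeR adjusted p = 3.92e-06) and 3 were lower, beside 19.6% and 24.5% of all genes. The lower ones were rnr-2 (-0.94, SE 0.10, edgeR adjusted p = 2.87e-07), rnr-1 (-0.60, SE 0.12, edgeR adjusted p = 0.000434) and tyms-1 (-0.57, SE 0.09, edgeR adjusted p = 2.21e-05), the genes that deliver deoxynucleotides and dTMP. The 2 groups did not overlap for any of these 4 genes, and here too the share of all genes without overlap was not computed. dhod-1 itself, 61.6 ± 5.30 CPM with BAY2402234 and 68.9 ± 8.43 CPM with RNAi, did not pass (edgeR adjusted p = 0.103, approximate 95% interval of the difference -0.32 to -0.01). That interval leaves out 0, but by edgeR without adjustment only the 4 genes called had a p below 0.05. Without replicate 1 of dhod-1 RNAi, dhod-1 was called lower with BAY2402234 (-0.24, edgeR adjusted p = 0.0134). Without replicates 3 and 4 of dhod-1 RNAi, 6 of the 10 genes were called, cdd-2 (-0.52, adjusted p = 0.00453) and dut-1 (-0.24, adjusted p = 0.00732) in addition. With all libraries dut-1 stood at 0.01. The shares of all genes above are those of the fit with all libraries. The plot of direct differences shows both contrasts.

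**Figure D3:**
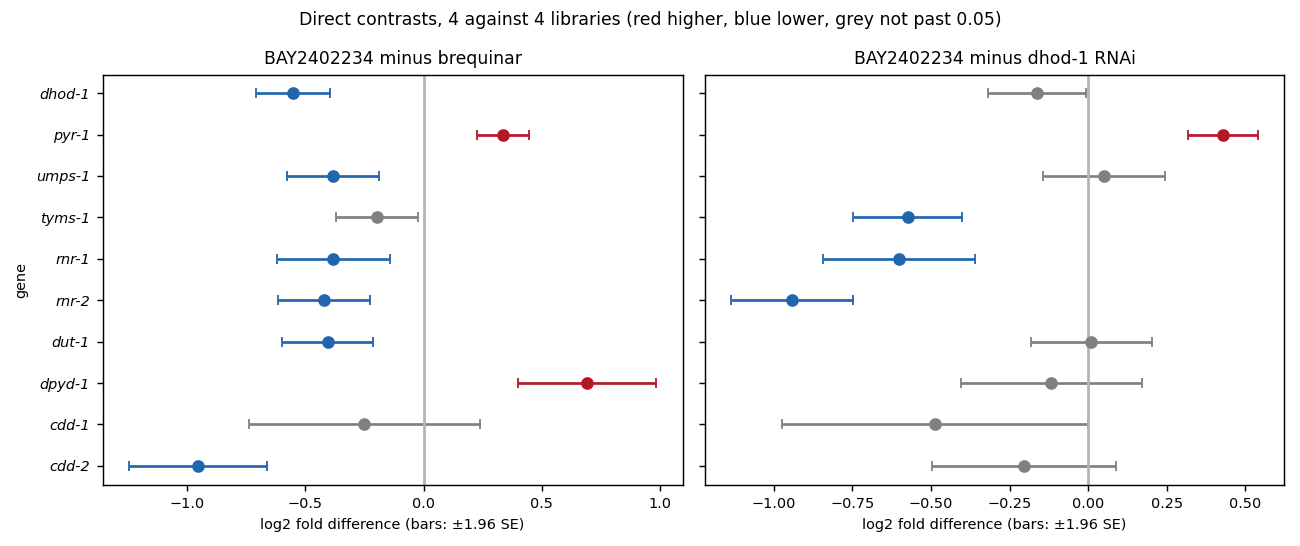
Difference in log2 CPM of each of the 10 genes between BAY2402234 and brequinar and between BAY2402234 and dhod-1 RNAi, with bars for the 95% interval; colour marks an edgeR adjusted p below 0.05. pyr-1 lies above 0 in both contrasts (0.34 and 0.43), and rnr-2 below 0 in both (-0.42 and -0.94).

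The DMSO groups of the batches carried the same labelled treatment and were compared in a fit of all 36 libraries. By edgeR, 0 of the 10 genes were higher and 3 lower in batch 2, beside 22.7% of all 16512 genes higher and 11.1% lower by the same test. By DESeq2 0 of the 10 were higher as well and 4 lower, with cdd-2 in addition (-0.43, adjusted p = 0.0133; -0.32, adjusted p = 0.0518 by edgeR), and without adjustment 4 of the 10 had a p below 0.05, all lower. rnr-1 was lower (399 ± 53.23 against 569.7 ± 44.6 CPM on the scale of that fit, log2 fold change -0.51, SE 0.13, edgeR adjusted p = 0.00247), as were pyr-1 (log2 fold change -0.21, SE 0.06, edgeR adjusted p = 0.00678) and rnr-2 (log2 fold change -0.31, SE 0.11, edgeR adjusted p = 0.0349). The rnr-2 groups overlapped, and that call was lost in 6 of 13 alternatives: without replicate 1 (-0.25, adjusted p = 0.11), 2 or 4 of the batch 2 controls, without replicate 2 or 4 of the batch 1 controls, and with only these groups fitted (adjusted p = 0.0518 to 0.11 over the 6). Another scaling, DESeq2 size factors, moved the median of all genes by -0.11 and the split of calls from 3749 higher and 1827 lower to 3169 higher and 3187 lower. Treatments of batch 1 and batch 2 were for this reason not compared with each other.

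The genes around the pathway were followed in lists compiled from general knowledge. Counts in these lists and the marker lists stand beside the shares of all genes called higher and lower in the main fits. These were 23.2% and 23.6% with BAY2402234, 5.03% and 10.6% with brequinar, and 31.3% and 30.1% with dhod-1 RNAi. They were 44.8% and 40.2% with doxycycline, 19% and 19.7% with teriflunomide, and 33.2% and 30.2% between BAY2402234 and brequinar. Fits without a library have other shares. A count near these shares is not a result about its list. With terbinafine and miglustat, edgeR and DESeq2 called 0 genes of any of the 7 lists of salvage, breakdown, folate, purine, transport, replication and repair genes; without adjustment, at most 2 genes of a list had a p below 0.05. Of 10 genes of pyrimidine salvage and interconversion, 8 fell and 0 rose with BAY2402234 (median log2 fold change -0.38, against 0.11 for all genes), 2 rose and 0 fell with brequinar, 3 rose and 7 fell with dhod-1 RNAi, 1 rose and 8 fell with doxycycline, and 1 rose and 5 fell with teriflunomide. With replicates 3 and 4 of dhod-1 RNAi left out, 2 rose and 5 fell. The nucleoside diphosphate kinase gene ndk-1 fell with BAY2402234 (-0.71, SE 0.13, edgeR adjusted p = 0.000351) and with dhod-1 RNAi (-0.70, SE 0.13, edgeR adjusted p = 0.000154; -0.39, adjusted p = 0.00392 without that pair of libraries). The CTP synthase gene ctps-1 fell with dhod-1 RNAi (-0.80, SE 0.15, edgeR adjusted p = 0.000117; -0.48, adjusted p = 0.00933 without the pair), doxycycline (-1.35, SE 0.06, edgeR adjusted p = 5.73e-10) and teriflunomide (-0.24, SE 0.06, edgeR adjusted p = 0.00639). The thymidine kinase gene thk-1 rose with brequinar (0.29, SE 0.06, edgeR adjusted p = 0.0024) and dhod-1 RNAi (0.49, SE 0.06, edgeR adjusted p = 8.33e-07) and fell with doxycycline (-2.46, SE 0.13, edgeR adjusted p = 3.21e-09). C29F7.3, the gene of the list with the smallest p with teriflunomide, rose there (124 ± 15.7 against 35.4 ± 13.7 CPM, 1.81, SE 0.22, edgeR adjusted p = 9.63e-05). Directly compared with brequinar, BAY2402234 gave lower levels of 10 of the 10 salvage genes (median -0.48), and of 8 of the 10 without replicate 1 of BAY2402234.

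The 3 genes that follow dpyd-1 in pyrimidine breakdown, the dihydropyrimidinase genes dhp-1 and dhp-2 and the beta-ureidopropionase gene upb-1, fell in no treatment. All 3 rose with doxycycline and with dhod-1 RNAi, 2 rose with BAY2402234 and 2 with teriflunomide, and with brequinar edgeR and DESeq2 called 0, and edgeR 0 also at an unadjusted p below 0.05. upb-1 went from 94.0 ± 14.98 CPM in the batch 2 DMSO libraries to 286 ± 20.8 with doxycycline (1.61, SE 0.11, edgeR adjusted p = 4.28e-08) and 196 ± 18.2 with teriflunomide (1.06, SE 0.11, edgeR adjusted p = 3.22e-05). dhp-2 rose with dhod-1 RNAi (0.95, SE 0.17, edgeR adjusted p = 6.6e-05) and with BAY2402234 (0.69, SE 0.17, edgeR adjusted p = 0.00262). All 3 were also higher in the batch 2 than in the batch 1 DMSO libraries, dhp-1 most (1.04, SE 0.20, edgeR adjusted p = 0.000156). Without replicates 3 and 4 of dhod-1 RNAi, 1 of the 3 was called in that comparison, dhp-2 (0.71, adjusted p = 0.00656), and without replicate 1 of the batch 2 controls 2 of the 3 were called between the DMSO groups.

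Of the 9 folate and one-carbon genes tested, 1 rose and 4 fell with BAY2402234, 0 rose and 1 fell with brequinar, 2 rose and 3 fell with dhod-1 RNAi, 6 rose and 1 fell with doxycycline, and 3 rose and 2 fell with teriflunomide. The dihydrofolate reductase gene dhfr-1, which regenerates the folate that thymidylate synthase uses, fell with BAY2402234 (-0.54, SE 0.12, edgeR adjusted p = 0.00112), dhod-1 RNAi (-0.43, SE 0.12, edgeR adjusted p = 0.00327) and doxycycline (-1.99, SE 0.10, edgeR adjusted p = 2.12e-09). In replicates 1 and 2 of dhod-1 RNAi alone, 2 folate genes rose and 1 fell, and the fall of dhfr-1 was not called (-0.22, adjusted p = 0.148). The folate transporter gene folt-2 stood at 26.2 ± 20.5 against 234 ± 16.0 CPM with BAY2402234 (-3.16, SE 0.61, edgeR adjusted p = 0.000541), with a large spread between the treated libraries. Of the 10 purine synthesis genes, 1 rose and 5 fell with BAY2402234, 0 rose and 3 fell with brequinar, 1 rose and 8 fell with dhod-1 RNAi, 4 rose and 4 fell with doxycycline, and 2 rose and 0 fell with teriflunomide; without the pair of dhod-1 RNAi 0 rose and 6 fell there, and without replicate 1 of the batch 2 controls 4 rose and 0 fell with teriflunomide. Of the 9 nucleoside transporter genes, ent-2 rose with dhod-1 RNAi (348 ± 122 against 112 ± 6.08 CPM, 1.64, SE 0.20, edgeR adjusted p = 1.13e-06; 1.13, adjusted p = 0.000124 without the pair) and ent-5 had the smallest p with BAY2402234, where it fell (-0.84, SE 0.15, edgeR adjusted p = 0.000214). In all, 1 transporter gene rose and 5 fell with BAY2402234, 0 passed with brequinar by edgeR or DESeq2 (3 at an unadjusted p below 0.05), 3 rose and 3 fell with dhod-1 RNAi, 4 rose and 5 fell with doxycycline, and 1 rose and 3 fell with teriflunomide. The transporter counts with dhod-1 RNAi and doxycycline were near the shares of all genes called. Without the same libraries, 3 transporter genes rose and 0 fell with dhod-1 RNAi, 4 rose and 3 fell with teriflunomide, and, without replicate 1 of BAY2402234, 1 rose and 3 fell with that compound.

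The deoxynucleotide genes were set beside 38 tested genes of the DNA replication machinery, such as the MCM helicase, origin recognition and DNA polymerase genes, which use what they supply. With doxycycline all 38 fell (median -2.75), and tyms-1, rnr-1, rnr-2 and dut-1 fell with them: rnr-1 fell more than 37 of the 38, and tyms-1 fell less than 35 of them. With brequinar 15 of the 38 rose and 0 fell (median 0.21), among them mcm-7 (0.38, SE 0.09, edgeR adjusted p = 0.00621), while tyms-1 and rnr-2 had higher log2 fold changes than each of the 38. With dhod-1 RNAi 6 rose and 12 fell (median -0.07); rnr-2 had a higher log2 fold change than all 38, and tyms-1 and rnr-1 than 37 of them. The exception was the replication licensing gene cdt-1 (158 ± 25.5 against 83.3 ± 6.42 CPM, 0.92, SE 0.11, edgeR adjusted p = 5.08e-07). Without replicates 3 and 4 of dhod-1 RNAi, 6 of the 38 rose and 1 fell. With BAY2402234 0 rose and 21 fell (median -0.21), and tyms-1, which rose, lay above all 38; without replicate 1 of BAY2402234, 1 of the 38 rose and 9 fell. With teriflunomide 0 rose and 7 fell (median -0.18), and the 4 deoxynucleotide genes lay in the middle of the list, between -0.18 and -0.12. Without replicate 1 of the batch 2 DMSO group, 15 of the 38 fell with teriflunomide.

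**Figure D4:**
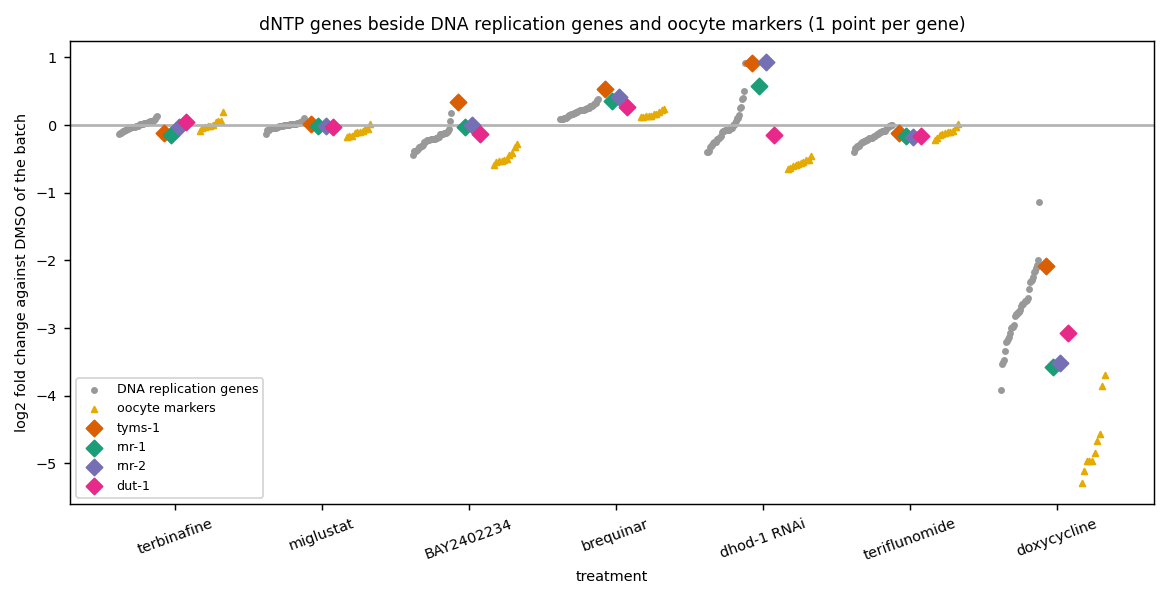
Log2 fold change in each treatment of tyms-1, rnr-1, rnr-2 and dut-1 beside the DNA replication genes (grey points) and the oocyte markers (yellow triangles). With doxycycline all of them lie below 0, and with dhod-1 RNAi rnr-2 (0.94), tyms-1 (0.92) and rnr-1 (0.57) lie near the top of the replication genes while the oocyte markers lie below 0.

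Of 14 tested genes of uracil repair and the DNA damage response, 0 rose and 8 fell with BAY2402234, 3 rose and 0 fell with brequinar, 2 rose and 6 fell with dhod-1 RNAi, 0 rose and 14 fell with doxycycline, and 0 rose and 3 fell with teriflunomide. The uracil-DNA glycosylase gene ung-1, which removes uracil from DNA, rose with brequinar (0.24, SE 0.08, edgeR adjusted p = 0.0486), as did the recombinase gene rad-51 (0.31, SE 0.07, edgeR adjusted p = 0.00422). egl-1, which starts programmed cell death, rose with dhod-1 RNAi (5.27 ± 1.19 against 1.18 ± 0.297 CPM, 2.16, SE 0.26, edgeR adjusted p = 5.08e-07; 1.91, adjusted p = 5.29e-05 without replicates 3 and 4) and fell with teriflunomide (-0.99, SE 0.32, edgeR adjusted p = 0.03). Without replicates 3 and 4 of dhod-1 RNAi, 1 of the 14 genes rose and 1 fell in that comparison, without replicate 1 of BAY2402234, 3 rose and 3 fell in that one, and without replicate 1 of the batch 2 controls 0 rose and 6 fell with teriflunomide.

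Markers of the germ line, oocytes and other tissues moved with several of these results. With doxycycline 10 of 10 oocyte markers fell, and their summed share of all counts was 0.0313 to 0.0470% against 0.863 to 1.16% in the batch 2 DMSO libraries. Of 12 germ line markers 11 fell, with a share of 0.0777 to 0.0953% against 0.288 to 0.322%, while 7 of 7 intestine and 5 of 5 muscle markers rose. The summed sperm share was 0.03996 to 0.06585%, against 0.03894% in replicate 1 of these controls and 0.005388 to 0.006479% in the rest. The hypodermis share was 0.1883 to 0.2135% against 0.02678 to 0.09133%, and the neuron share 0.04587 to 0.04984% against 0.03352 to 0.03891%. Neither list moved 1 way. Of the hypodermis markers col-19 and col-10 rose, dpy-7 fell (-3.17, SE 0.58, edgeR adjusted p = 0.000312), and rol-6 and bli-1 did not pass. Of the neuron markers rab-3, egl-3, ric-4 and unc-31 rose. unc-119 (-1.34, SE 0.11, edgeR adjusted p = 2.05e-07) and snb-1 (-0.43, SE 0.06, edgeR adjusted p = 1.64e-05) fell. No germ line or oocyte marker was at 0 in any group; of the embryo markers, med-1 and pes-10 were at 0 with doxycycline and med-1 with teriflunomide, terbinafine and BAY2402234. The falls of rnr-1, rnr-2, dut-1, tyms-1, dhod-1, umps-1 and cdd-2 and the rises of dpyd-1, cdd-1 and pyr-1 with doxycycline stand beside these marker changes, whose part in them was not tested.

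With dhod-1 RNAi 10 of 10 oocyte markers and 11 of 12 germ line markers fell, and 1 germ line marker rose. The oocyte share was 1.02, 1.09, 0.689 and 0.493% in replicates 1 to 4 against 1.14 to 1.21% in the batch 1 DMSO libraries, and the germ line share 0.287, 0.274, 0.195 and 0.164% against 0.334 to 0.358%. Replicates 3 and 4, with the lowest shares of both, were also those with the lowest dut-1, umps-1 and cdd-2 and the highest rnr-2 and tyms-1. The rises of tyms-1, rnr-1 and rnr-2 were measured in worms in which the germ line and oocyte markers were lower and embryo markers higher, and they were called as well in replicates 1 and 2 alone. In those 2 libraries alone 3 of 10 oocyte and 4 of 12 germ line markers fell. Of 8 embryo markers tested 3 rose and 0 fell, also without replicates 3 and 4, and the summed share of the 10 on the list was 0.00444, 0.00422, 0.00672 and 0.00751% in replicates 1 to 4 against 0.00131 to 0.00183% in the controls, with no overlap and with replicates 3 and 4 highest. All 5 muscle markers fell with dhod-1 RNAi, with a share of 0.242 to 0.318% against 0.404 to 0.526%. Without replicates 3 and 4, 4 of the 5 fell. The summed sperm share was 0.0008728 to 0.001607% against 0.003479 to 0.008315% in the controls. The hypodermis share, most of it col-19, was 0.03015 to 0.0363% against 0.0516 to 0.06257%. Its markers did not all go 1 way: col-19 (-0.87) and col-10 (-1.34) fell, and rol-6 and bli-1 did not pass. dpy-7 rose (2.45, SE 0.59, edgeR adjusted p = 0.00122).

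With BAY2402234 7 of 12 germ line and 7 of 10 oocyte markers fell (oocyte share 0.914 to 0.965%), or 4 of each without its replicate 1. That replicate held a summed sperm share of 0.01523%, against 0.003823 to 0.00419% in the other BAY2402234 libraries. Its hypodermis share was 0.07411% against 0.04507 to 0.04856% in them. With brequinar edgeR and DESeq2 called 0 of either list (1 germ line and 0 oocyte markers at an unadjusted p below 0.05), 5 of 5 muscle markers fell and the oocyte share was 1.25 to 1.39%. Of 7 intestine markers 4 rose and 1 fell with BAY2402234 and 0 rose and 3 fell with brequinar, and their summed share was 0.451 to 0.682% and 0.148 to 0.198%, with no overlap with each other or with the 0.288 to 0.377% of the controls. These shares stand beside the fall of dpyd-1 with brequinar and its higher level with BAY2402234 than with brequinar. Of 8 embryo markers 2 rose with BAY2402234 and 3 with brequinar, with shares of 0.00265 to 0.00349% and 0.00201 to 0.00311%. With teriflunomide 1 of 12 germ line and 0 of 10 oocyte markers fell and 7 of 7 intestine and 5 of 5 muscle markers rose, beside the rise of cdd-1. The summed sperm share with teriflunomide was 0.02983 to 0.04133%. Of the batch 2 controls only replicate 1 reached that range (0.03894%), with 0.005388 to 0.006479% in the rest. The hypodermis share, most of it col-19, was 0.1137 to 0.143% against 0.02678 to 0.09133%, with the same control replicate highest. Of its markers only col-19 rose (1.55, SE 0.34, edgeR adjusted p = 0.00472). dpy-7 fell (-3.97, SE 0.61, edgeR adjusted p = 0.000468), and rol-6, bli-1 and col-10 had negative values that did not pass. The part of these marker changes in the results on the 10 genes was not tested.

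Compared per length of exon, the 10 genes differed widely in level. In the batch 1 DMSO libraries rnr-2 was highest, at 563 ± 44.1 CPM per kb of exon (SD, n = 4), followed by rnr-1 at 211 ± 15.7 and dut-1 at 207 ± 11.2, which did not differ beyond their spread. umps-1 (72.2 ± 4.47), tyms-1 (64.7 ± 3.75) and cdd-2 (61.3 ± 6.64) came next with overlapping spreads, then dhod-1 (50.7 ± 2.83), dpyd-1 (20.7 ± 3.33) and pyr-1 (18.8 ± 0.489), the last of which were within their spread of each other. cdd-1 was lowest, at 4.97 ± 1.61 CPM per kb. In the batch 2 DMSO libraries the order was the same except that dut-1 (204 ± 31.8) came before rnr-1 (154 ± 20.4). With doxycycline dpyd-1 reached 101 ± 5.99 CPM per kb and was the highest of the 10, rnr-2 stood at 41.4 ± 4.58, and rnr-1 was the lowest of the 10.

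Likeness of pattern was measured as Pearson's r of log2 CPM over the 36 libraries, centred on the batch means, among 14434 genes; the libraries share groups and batches, and the 4 doxycycline libraries weigh heavily, so r is given as a description. rnr-1 and rnr-2 were alike (r = 0.989), and cdl-1 was the most alike to both (0.995 and 0.994). Next came pri-1 (0.993) and the cohesin gene scc-1 (0.993) for rnr-1, and cdt-1 (0.993) and the condensin gene hcp-6 (0.993) for rnr-2. For dut-1 the 3 most alike were ari-1.4 (0.997), Y69A2AR.1 (0.997) and cpg-3 (0.996), and for tyms-1 Y39G8B.2 (0.983), bmk-1 (0.981) and cec-5 (0.978). For dpyd-1 they were gta-1 (0.948), mct-4 (0.948) and bas-1 (0.945), for cdd-1 alh-4 (0.899), gst-36 (0.897) and vha-10 (0.882) and for cdd-2 fars-1 (0.975), pas-2 (0.973) and cct-2 (0.972). cdd-1 and cdd-2 themselves had r = -0.377. For dhod-1 they were M04B2.4 (0.932), eat-3 (0.928) and vps-36 (0.925), for umps-1 prdx-6 (0.879), mrpl-34 (0.865) and pars-1 (0.858) and for pyr-1 C08E3.13 (0.864), daao-1 (0.863) and pitr-5 (0.806), with lower values than for the deoxynucleotide genes. Between the genes of UMP synthesis r was 0.73 for dhod-1 and umps-1 and -0.589 for dhod-1 and pyr-1.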

How the data were processed

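The authors deposited raw counts per gene, and these counts were analysed unchanged. The submitters' processing notes name FastQC, STAR 2.7.3a, DESeq2 1.40.2 and the build WBcel235. The counting tool, its use of strand and its annotation are not given in the sources used here, so overlapping genes may share reads. Positions came from Ensembl's annotation of WBcel235.

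Genes were filtered with filterByExpr (minimum count 10), scaled by TMM and fitted per batch with edgeR 4.0.16 in R 4.3.3 (robust quasi-likelihood test); p-values were adjusted by Benjamini-Hochberg over all genes fitted, with a threshold of 0.05. The DMSO groups were compared in a joint fit of both batches. An SE is the log2 fold change divided by the root of F. A 95% interval is the log2 fold change plus or minus 1.96 SE, not adjusted for the number of genes. It is approximate, since this normal multiple makes it narrower than the F test implies with few libraries. DESeq2 1.42.0 was the second tool. The edgeR procedure was also run on simulated data, and the outcome of that run is not given here. Named were the 10 genes, of each list up to 4 genes past the threshold with the smallest p, and the 3 genes most alike to each of the 10. The genes and all lists were chosen with earlier results of these data known.

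Chi-square values per degree of freedom between libraries of a group were 3.73 or higher, so none repeated another. At 19253276 to 20455600 counts per library, precision was limited most for cdd-1. No sequences were used here.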

Additional observations from a re-analysis of the deposited data

Results flagged for a closer look

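Within groups of 4 libraries, 2 values of 90 tested lay far from the other 3, where chance alone gives about 1 in 20 groups. tyms-1 in replicate 1 of BAY2402234 was low, at 70.7 CPM against 88.1 to 90.5 CPM in the other 3 libraries, a gap of 0.88 of the group's whole range. The same library also stood apart on the first principal component. dut-1 in replicate 2 of terbinafine was high, at 358 CPM against 319 to 322 CPM in the other 3, a gap of 0.943 of the range. Leaving out either library changed no call of the gene concerned against DMSO.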

How the results depend on the processing

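Over all alternatives, 1356 of 1410 values for the 10 genes kept their side of the threshold, of which 1299 also kept their sign and 57, in 22 gene and comparison pairs that passed in neither setting, changed sign or came to 0 (from between -0.142 and 0.101 to between -0.135 and 0.14). A further 32 passed in addition and 21 no longer passed. Of the changes of sign, 1 passed the threshold under the alternative and 0 were of a value called in the main analysis. That 1 was dut-1 between BAY2402234 and dhod-1 RNAi, at -0.243 (-0.24) without replicates 3 and 4 of dhod-1 RNAi, an alternative chosen after seeing the data, against 0.01 with them; that alternative left 5132 genes called with dhod-1 RNAi, against 9295. Of the 10 genes, brequinar changed 5 by DESeq2, 5 with a stricter filter on low counts and 6 with only its libraries and their controls fitted, against 3, and teriflunomide 1 with no filter, against 2. For DESeq2 with brequinar and for these changes of filter, the number of all genes called is not given here.

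Over all genes, DESeq2 called 241 with terbinafine and 264 with miglustat, against 136 and 88 by edgeR. With only the groups compared in the fit, edgeR called 39 genes with miglustat, 3749 with brequinar (2370 in the main analysis), 4325 between BAY2402234 and dhod-1 RNAi (6677) and 3633 between the DMSO groups (5576). The cause of these shifts was not tested.

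Leaving out each library in turn gave, of the 10 genes, 7 to 9 called between BAY2402234 and brequinar, 4 to 5 between BAY2402234 and dhod-1 RNAi, 2 to 4 between the DMSO groups, 4 with BAY2402234, 2 to 4 with brequinar, 5 to 8 with dhod-1 RNAi (8 without its replicate 1), 10 with doxycycline, 1 to 3 with teriflunomide and 0 with terbinafine and miglustat. Over all genes these counts were 76 (without terbinafine replicate 4) to 172 with terbinafine, 22 (without DMSO replicate 2) to 254 (without miglustat replicate 4) with miglustat, 1154 (without DMSO replicate 1) to 2541 with brequinar and 4596 to 9148 (without DMSO replicate 1 of batch 2) with teriflunomide. They were 5507 to 7269 with BAY2402234, 7842 to 9605 with dhod-1 RNAi and 13037 to 13883 with doxycycline. Between BAY2402234 and brequinar they were 7968 to 9781, between BAY2402234 and dhod-1 RNAi 5611 to 6984, and between the DMSO groups 4323 to 6318.

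The labels do not say whether libraries with equal replicate numbers belong together, and the main fits held no replicate term. The mean correlation of same-numbered libraries was 0.093 in batch 1 (-0.031 for other pairs) and -0.185 in batch 2 (0.053 for other pairs). In batch 1, 29 of 60 same-numbered pairs were above 0.1, over a range of -0.632 to 0.669. Between BAY2402234 and DMSO the 4 pairs ranged from 0.087 to 0.669. With the replicate number as a block, the counts for the 10 genes were 4 with BAY2402234, 4 with brequinar, 6 with dhod-1 RNAi, 10 with doxycycline, 2 with teriflunomide, 9 between BAY2402234 and brequinar, 4 between BAY2402234 and dhod-1 RNAi, and 0 with terbinafine and miglustat. The number of all genes called with that block is not given here, so these counts have no background to be read against. No paired analysis was possible for the DMSO groups because they come from different batches. Depth limited cdd-1 most, at 49 to 598 counts per library.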
